A study of Arabidopsis thaliana with 12 samples.

Results

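Transcripts of 3 Arabidopsis thaliana genes that act in the Golgi or in making cell wall polysaccharides were followed on an array: CSLA01 (AT4G16590), AT2G15440 and AT1G73430. They were picked by name from an annotated probe set, with their values in the mutant and the wild type already known. Each had 1 probe assigned to it alone and no probe shared with other genes. They are 3 of the 691 genes that had such a probe, on 692 probes, and the array table held 3439 probes in all.

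Total RNA was measured in 6 readings of the wild type (WT) and 6 readings of the toc90 mutant, both of ecotype Columbia 0. Per the labels, toc90 plants are impaired in moving proteins across the outer envelope of the chloroplast. The sources used here do not give the allele, the age, the tissue or how the plants were grown. The labels do not say whether readings came from separate plants, so any p-value measures the spread between these readings, which may be technical.

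Most matrix polysaccharides of the plant cell wall are built in the Golgi apparatus and carried to the wall in vesicles, whereas cellulose is made at the plasma membrane. Cellulose synthase-like A (CSLA) proteins are Golgi glycosyltransferases, and members of the family make the backbone of mannan and glucomannan. DUF579 proteins, to which AT2G15440 belongs, include enzymes that methylate glucuronic acid on xylan and proteins needed for normal xylan. AT1G73430 encodes subunit 3 of the conserved oligomeric Golgi (COG) complex, which in yeast and animals tethers vesicles that return enzymes to their Golgi cisterna. Toc90, the protein missing or altered in the mutant, belongs to the receptor family that recognises chloroplast precursors at the outer envelope.

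The readings of the 2 groups differed in their dim values, which bears on the genes near the floor of 0. Probes listed at 0 made up 15.2% ± 1.63 of a WT reading and 26.6% ± 5.37 of a toc90 reading (SD, n = 6 each), higher in toc90 at all 6 numbers. The exact permutation p, two-sided, was 0.00216 over all assignments of the 12 readings. Within the 6 pairs of like number it was 0.0313, the smallest that 6 pairs allow. Neighbouring numbers had like shares. From number 1 to 6 they were 14.8%, 14.5%, 17.2%, 17.3%, 13.9% and 13.5% in WT. In toc90 they were 26.2%, 26.7%, 31.9%, 33.4%, 21.1% and 20.3%. Both p-values count each number as a separate reading, and would be larger if neighbouring numbers were repeats. For the mean value, 0.865 ± 0.126 against 0.851 ± 0.162 (SD, n = 6 each), the exact permutation p was 0.671. Of 6 green tissue markers, 5 had a single-gene probe, and their summed value ran from 75.1 to 113 in WT and from 63.8 to 120 in toc90. PSBW and LHB1B2 made up most of that sum. PSAN ran from 5.04 to 7.37 in WT and from 6.56 to 12.8 in toc90, and each of the 5 ranges overlapped between the groups. Whether the groups had like tissue content was not tested. The root markers PYK10 and PHT1;1 and the seed marker CRA1 had no single-gene probe. In bulk RNA, fewer cells of a type and less RNA per cell cannot be told apart.

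AT2G15440, the DUF579 gene, was lower in toc90 in every reading. Its deposited intensity in WT had a lowest value of 0.802, a median of 0.971 and a highest value of 1.29. In toc90 the lowest value was 0.339, the median 0.368 and the highest 0.429. The groups did not overlap, since the highest toc90 reading lay below the lowest WT reading, and none of the 12 readings was at 0. Over all 3439 probes, 19.9% had all 6 toc90 readings below every WT reading. Only 1.4% had all 6 above.

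The mean of AT2G15440 was 1.03 ± 0.191 in the wild type and 0.377 ± 0.0318 in the mutant (SD, n = 6 each), so that WT stood 2.74-fold above the mutant. That fold is on the deposited scale, where the median value of a reading was on average 0.154 in WT and 0.0619 in toc90. On the deposited scale the coefficient of variation was 18.5% in WT and 8.42% in toc90. As a percentile among all probes of the same reading, the SD was 0.709 in WT and 1.49 in toc90. Which group spread more thus depended on the scale. In WT, numbers 3 and 4 were the highest readings at 1.29 and 1.24, and numbers 5 and 6 were the lowest at 0.802 and 0.925. The toc90 readings of numbers 3 and 4 were 0.339 and 0.398. By percentile among all probes of the reading, WT numbers 3 and 4 did not stand out, at 90.2 and 90.0. WT numbers 2 and 6 lay at 90.1 and 90.0. Averaged over numbers 1 and 2 as deposited, toc90 stood at 0.379 of WT. The same ratio was 0.291 for numbers 3 and 4 and 0.458 for numbers 5 and 6.

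AT1G73430, the COG subunit gene, went from a steady WT level to values at or near 0. In WT its intensity had a lowest value of 0.491, a median of 0.561 and a highest value of 0.636. In toc90 it was 4.73e-05 in number 1, 0.0462 in number 3, 0.0108 in number 5 and 5.05e-05 in number 6. Numbers 2 and 4 of toc90 were listed at 0. All mutant readings were lower than all WT readings, and number 3 was the highest of the mutant readings by a wide margin.

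The mean of AT1G73430 was 0.562 ± 0.0527 in WT and 0.00951 ± 0.0185 in toc90, with zeros counted (SD, n = 6 each). The toc90 mean rested largely on number 3. Without it the mean of the other 5 readings was 0.00218 ± 0.00481 (SD, n = 5). Its ratio to the WT mean then moved from 0.0169 to 0.00387, so the size of the drop is not fixed by these readings. The WT readings had a coefficient of variation of 9.37%, the smallest of the 10 cell wall and Golgi genes described here in that group. At 0 or close to it, a reading has no reliable order among dim probes.

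CSLA01, the mannan synthase-like gene, split the toc90 readings. In WT all 6 readings were low and close together, with a lowest value of 0.0217, a median of 0.0268 and a highest value of 0.0331. In toc90 the intensity was 0.0591 in number 1, 0.0544 in number 3, 0.0652 in number 5 and 0.0483 in number 6. Numbers 2 and 4 of toc90 were listed at 0. Thus 4 of 6 toc90 readings lay above every WT reading and the other 2 below every one. Of all probes, 35.7% were above 0 in all 6 WT readings and at 0 in at least 1 toc90 reading, as CSLA01 and AT1G73430 were. Among all probes, 1.02% had at least 4 toc90 readings above every WT reading with the rest at 0.

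The mean of CSLA01, zeros included, was 0.0268 ± 0.00378 in WT against 0.0378 ± 0.0298 in the mutant (SD, n = 6 each). The difference of 0.011 was smaller than the spread of the toc90 readings. Over the 4 toc90 readings above 0 the mean was 0.0568 ± 0.00717 (SD, n = 4), which is 2.12-fold the WT mean. For numbers 1 and 2 together toc90 stood at 1.24 of WT, for 3 and 4 at 0.897 and for 5 and 6 at 2.17. A higher level in the mutant was therefore seen in some readings and not in others.

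**Figure D1:**
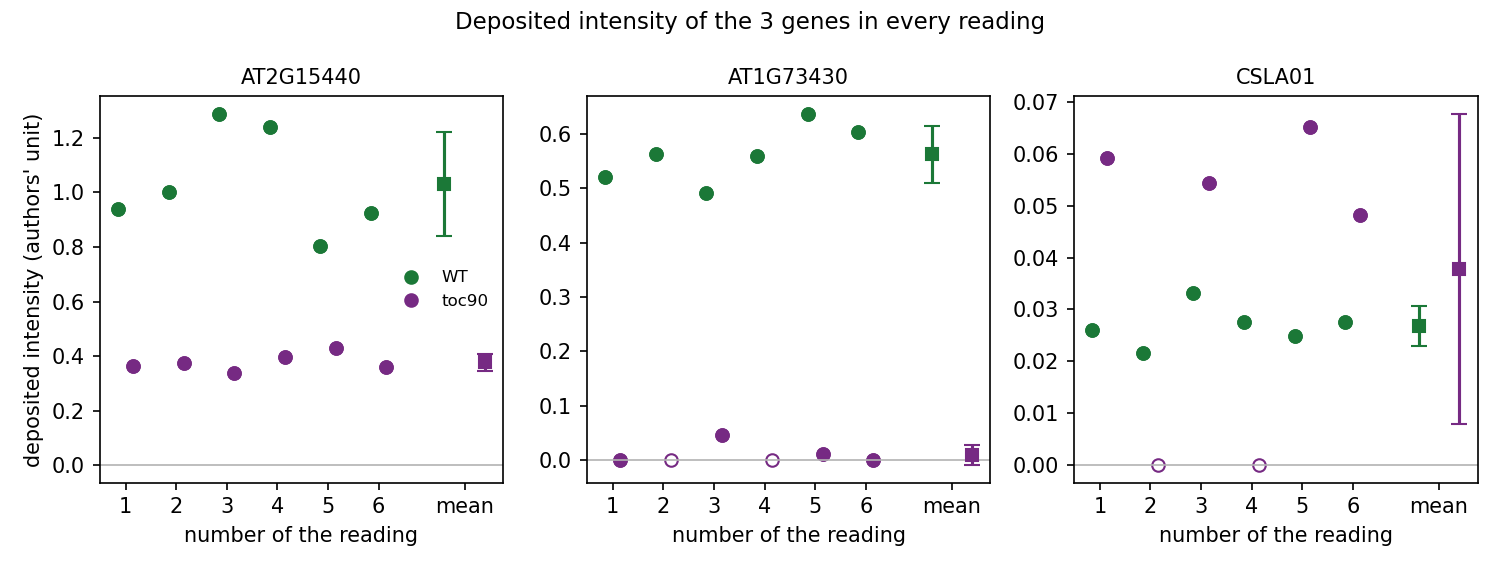
Deposited intensity (vertical axis, authors' unit, each panel with its own scale) of AT2G15440, AT1G73430 and CSLA01 against the number of the reading, with WT in green and toc90 in purple. Open circles are readings at 0, and squares with bars are the mean ± SD of 6 readings. AT2G15440 and AT1G73430 show no overlap of the groups, while CSLA01 has 4 toc90 readings above and 2 below all WT readings.

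CSLA01 and AT1G73430 were at 0 in the same toc90 readings, numbers 2 and 4. These readings had 26.7% and 33.4% of all probes at 0, and the toc90 readings ran from 20.3% to 33.4%. Zeros in both readings were found for 633 probes (18.4%). Zeros there with values above 0 in the other 10 readings were found for 50 probes (1.45%). Number 3 of toc90, at 31.9%, had nearly as many zeros as number 4, and CSLA01 was at 0.0544 there. In toc90 both genes were higher in the odd number of each neighbouring pair, and AT1G67930, described below, in the even number. Over probes, deviations from the toc90 mean correlated at -0.14 to -0.05 among even numbers. Between odd and even numbers that were not neighbours they correlated at -0.44 to -0.37. The part of the zeros and of this grouping in the results was not tested.

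The place of a gene among all probes of its own reading does not depend on any scale factor for the reading. It follows 1 probe across readings, since the brightness of different probes cannot be compared. AT2G15440 lay at percentile 89.7 ± 0.709 in WT against 80.8 ± 1.49 in the mutant (SD, n = 6 each). Its lowest WT place was 88.3 and its highest toc90 place 82.2. AT1G73430 lay at 81.8 ± 2.75 in WT against 24.6 ± 11 in the mutant (SD, n = 6 each), and its highest toc90 place was 44.3 against a lowest WT place of 77.8. On this scale 6.25% of all probes had every toc90 reading below every WT reading, as these genes had, which were chosen on this contrast.

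CSLA01 lay at percentile 19.8 ± 2.56 in WT against 37.1 ± 17.3 in the mutant (SD, n = 6 each). Its 4 toc90 readings above 0 lay between 44.8 and 51.7, against a highest WT place of 23.3. The readings at 0 share the middle place of all zeros of that reading, which was 13.3 in number 2 and 16.7 in number 4. The median value of a toc90 reading was 0.0619 ± 0.00363 and that of a WT reading 0.154 ± 0.00262 (SD, n = 6 each), so that a given dim intensity had a higher place in toc90.

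**Figure D2:**
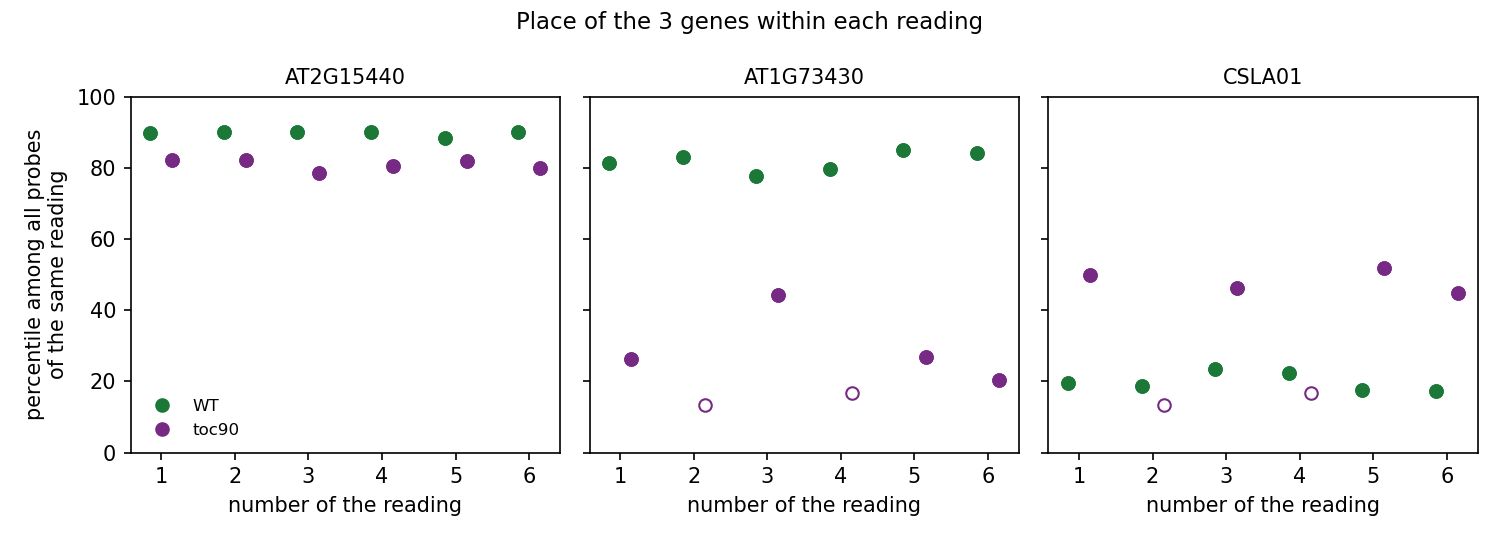
Percentile of each gene among all 3439 probes of the same reading (vertical axis) against the number of the reading, WT in green and toc90 in purple, with open circles for readings at 0. AT2G15440 lies at percentile 78.6 or above in every reading, AT1G73430 lies at 44.3 or below in toc90, and CSLA01 lies between 44.8 and 51.7 in 4 toc90 readings.

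For a comparison with the rest of the array, all readings were quantile normalized with zeros included and put on the log2 scale after adding 0.0345. Readings at 0 then took the mean value of the tied ranks. On that scale the median difference of the 3161 probes tested, toc90 minus WT, was 0.02. AT1G73430 stood at -3.21 ± 0.28 (SE), a size set by the offset, since its toc90 readings were at or near 0. It was -1.18 with an offset 10 times larger and -4.66 with one 10 times smaller. AT2G15440 stood at -1.06 ± 0.14 (SE), with 294 probes lower. CSLA01 stood at 0.88 ± 0.38 (SE), and at 0.19 and 1.31 with the larger and the smaller offset. The genes were chosen on this contrast, so these differences are descriptions and no p is given.

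**Figure D3:**
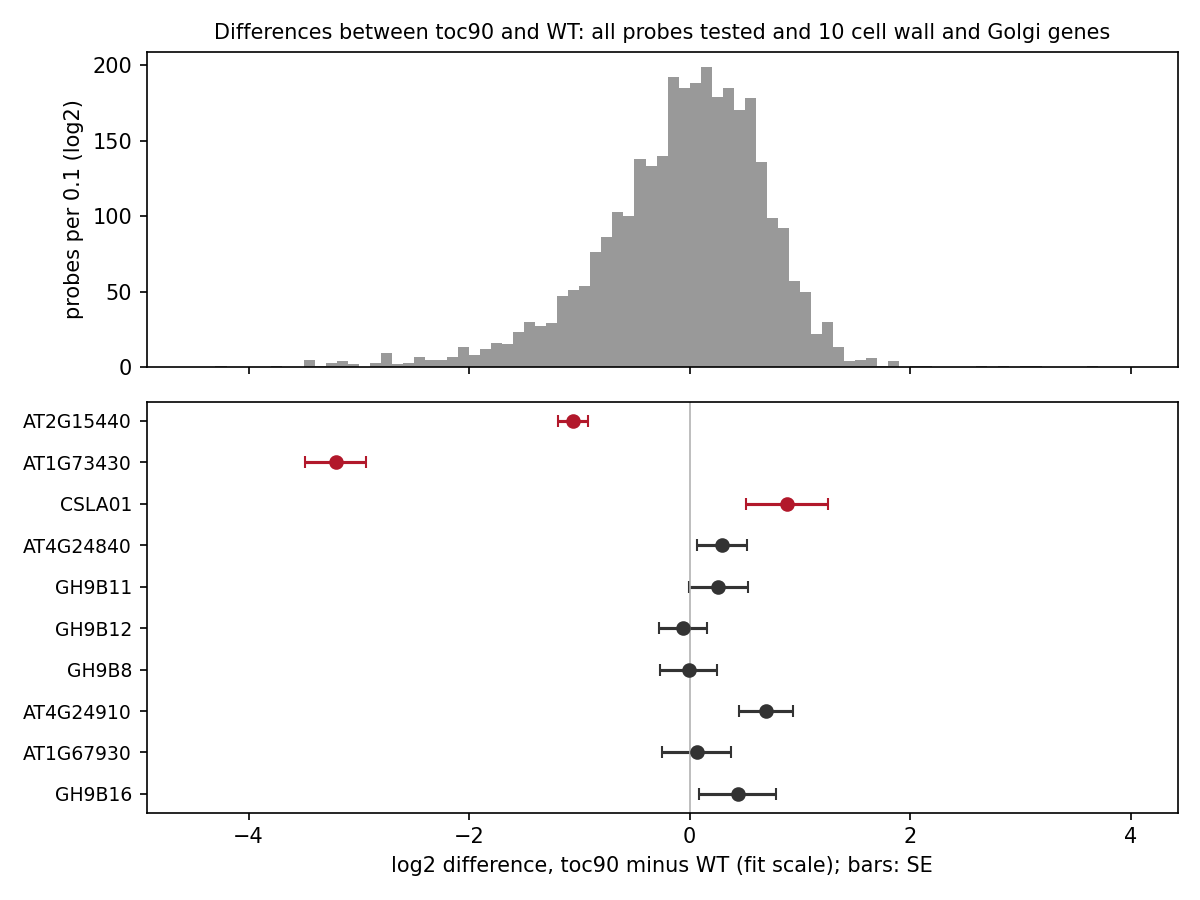
Top, number of probes (vertical axis) by log2 difference between toc90 and WT (horizontal axis) for the 3161 probes tested. Bottom, the difference of each of 10 cell wall and Golgi genes with its SE, the 3 described above in red: AT1G73430 lies at -3.21, and the 7 others lie between -0.06 and 0.69.

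The size and, for CSLA01, the direction of these differences depended on how values were scaled and how zeros were read. Without scaling, the median of all probes was -0.60, and relative to it CSLA01 stood at 0.70, AT2G15440 at -0.76 and AT1G73430 at -3.24. With zeros left out, as missing, CSLA01 stood at 2.21 ± 0.24 (SE) on 4 toc90 readings, and AT1G73430 at -7.87 ± 1.63 (SE), also on 4. With the lowest positive value in place of each zero, CSLA01 turned to -0.36 ± 2.58 (SE), and AT1G73430 stood at -6.79 ± 2.33 (SE). AT2G15440, which had no zeros, ran from -1.40 to -0.70 over these and the other settings tried. It was below 0 in each of them, as was AT1G73430.

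**Figure D4:**
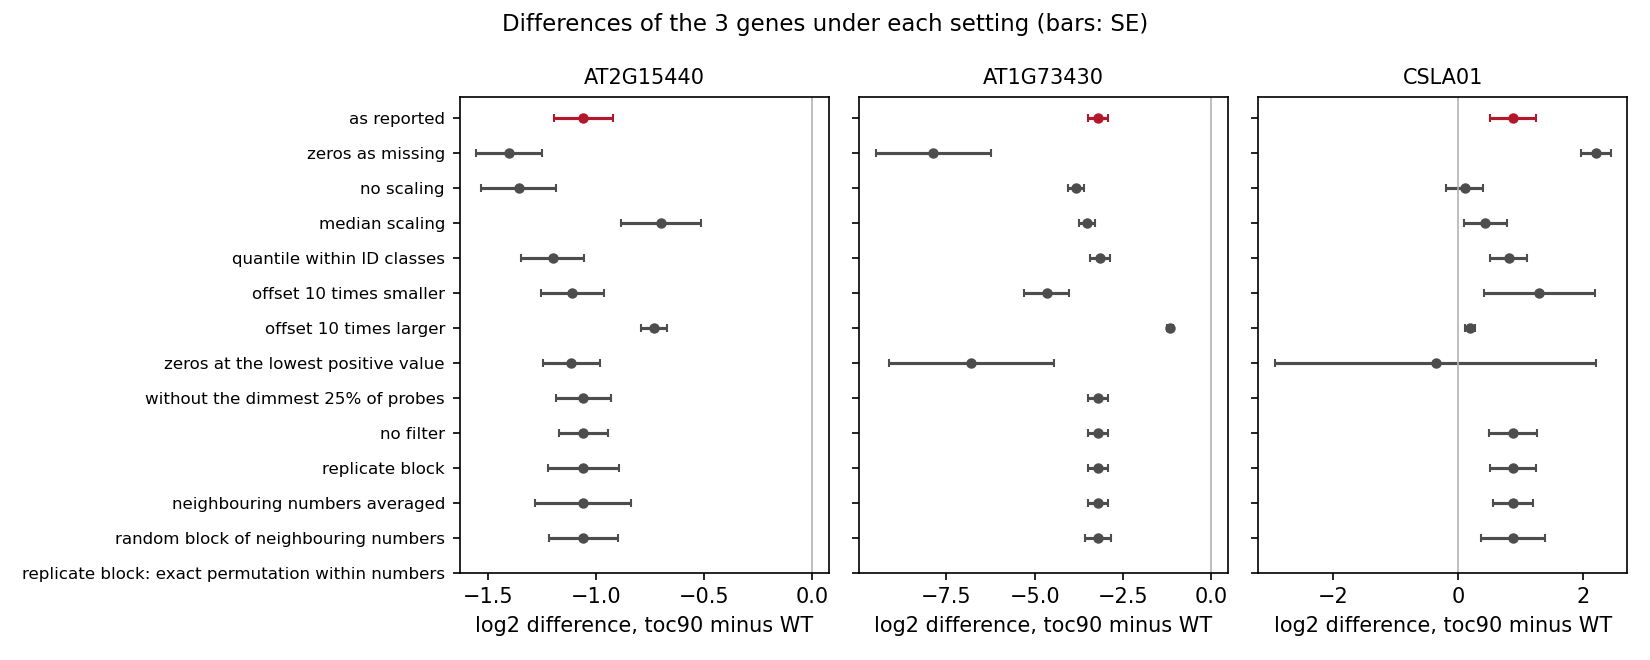
Log2 difference between toc90 and WT with its SE (horizontal axis, a scale of its own in each panel) for AT2G15440, AT1G73430 and CSLA01 under the reported setting, in red, and each other setting (vertical axis). AT2G15440 and AT1G73430 lie below 0 throughout, and CSLA01 ranges from -0.36 to 2.21.

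Other cell wall and Golgi genes were taken from 7 lists of 75 loci, made up from general knowledge, and from gene names containing cell wall words. Of the 75 loci, 6 had a single-gene probe, the 3 genes above included. The lists of other cellulose synthase genes, xylan synthesis, pectin and xyloglucan synthesis and nucleotide sugar supply had none. The names added 4 genes, GH9B8, GH9B11, GH9B12 and GH9B16, of glycosyl hydrolase family 9, whose members cut beta-glucan chains. This made 7 other genes, of which only the 3 from the lists belong to a family or complex of the genes above.

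In the fit across all probes, limma called 600 of 3161 probes (19%) at a Benjamini-Hochberg adjusted p under 0.05, 262 higher (8.29%) and 338 lower (10.7%) in toc90. With neighbouring numbers averaged, 3 values against 3, the count was 209. Of the 3161 probes tested, 1084 were at an unadjusted limma p under 0.05, as was 1 of the 7 other genes. Of those 7 genes, 0 were called in either direction. Their median log2 difference was 0.26, against 0.02 over all probes tested, and 5 lay above 0 and 2 below. Without scaling, 3 of the 7 were called lower, AT1G67930, GH9B11 and GH9B12, where 40.4% of all probes were called lower and 2.56% higher. Relative to the median of all probes in that setting, those 3 stood at -0.34, -0.25 and -0.03. Of the calls, 43.7% were higher in toc90 in the fit reported here, 5.97% without scaling, 28.9% with zeros as missing and 59.1% where zeros took the lowest positive value.

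AT4G24840 and AT1G67930 were entered in the list as loci of the COG complex. AT4G24840 had a lowest value of 0.118, a median of 0.158 and a highest value of 0.186 in WT, and 0.028, 0.0939 and 0.16 in toc90. Over all 3439 probes, 19.9% had all 6 toc90 readings below every WT reading, and the share with at least 4 was not counted. Of the mutant readings of AT4G24840, 4 were lower than any in WT, with the others inside the WT range. Its log2 difference was 0.29 ± 0.23 (SE, limma adjusted p = 0.381). It turned to -0.61 (limma adjusted p = 0.0714) without scaling, and to -0.059 (0.91) with median scaling.

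AT1G67930 had a lowest value of 0.0494, a median of 0.0617 and a highest value of 0.0693 in WT. Its toc90 readings had a lowest value of 0, a median of 0.0113 and a highest value of 0.0635. Thus 5 of 6 mutant readings were lower than any in WT. Over all 3439 probes, 19.9% had all 6 lower, and the share with at least 5 was not counted. Numbers 1 and 3 were at 0, other readings than for AT1G73430. Its log2 difference was 0.06 ± 0.31 (SE, limma adjusted p = 0.902), and -0.94 ± 0.25 without scaling (SE, limma adjusted p = 0.00774). On the deposited scale the toc90 mean was 0.0169 of the WT mean for AT1G73430, 0.305 for AT1G67930 and 0.619 for AT4G24840. Without number 3 of toc90 the first was 0.00387, and without number 6 of toc90 the second was 0.155. These ratios take no account of the lower median value of a toc90 reading, 0.0619 on average against 0.154 in WT. The difference between these COG loci was not tested.

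AT4G24910 was entered beside AT2G15440 in the DUF579 list. Its WT readings had a lowest value of 0.0479, a median of 0.0762 and a highest value of 0.0924. In toc90 they spread from 0.005 through a median of 0.0393 to 0.112, so that 2 readings lay above every WT reading and 4 below. Over all 3439 probes, 19.9% had all 6 toc90 readings below every WT reading and 1.4% all 6 above. The share with 2 above and 4 below was not counted. The log2 difference of AT4G24910 was 0.69 ± 0.25 (SE, limma adjusted p = 0.0662), the largest of the 7. The gene was called (0.84, limma adjusted p = 0.0191) when fitted without number 2 of toc90. Without scaling it stood at -0.39 (limma adjusted p = 0.294). As deposited, the ratio of group means, toc90 over WT, was thus 0.365 for AT2G15440 and 0.752 for AT4G24910. This ratio takes no account of the lower median value of a toc90 reading.

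The glycosyl hydrolase genes gave no call in the fit reported here. GH9B12 had a mean of 0.434 ± 0.124 in WT against 0.268 ± 0.0771 in the mutant (SD, n = 6 each), with a log2 difference of -0.06 (limma adjusted p = 0.872). GH9B11, which lies next to it on the chromosome with 0 genes between, had means of 0.115 ± 0.0497 and 0.0506 ± 0.031 (SD, n = 6 each), with a difference of 0.26 (limma adjusted p = 0.525). The direction of GH9B11 depended on the scaling, at -0.85 (limma adjusted p = 0.0331) without scaling, -0.38 (0.397) with median scaling and -0.52 (0.578) with zeros as missing. GH9B11 and GH9B12 each had 4 of 6 toc90 readings below every WT reading. Over all 3439 probes, 19.9% had all 6 below, and the share with at least 4 was not counted. In both, WT numbers 1 and 2 were alike, at 0.498 and 0.497 for GH9B12 and at 0.177 and 0.179 for GH9B11.

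GH9B8 and GH9B16 were at the floor in many readings. GH9B8 was at 0 in 2 WT and 4 toc90 readings, with a highest value of 0.0612 in WT and 0.0101 in toc90 (log2 difference -0.01, limma adjusted p = 0.982). GH9B16 was at 0 in 3 WT and 4 toc90 readings (0.44, limma adjusted p = 0.399). Its values in numbers 5 and 6 were 0.0505 and 0.0209 in WT and 0.0485 and 0.0379 in toc90, whereas numbers 1 and 2 were at 0 in both groups. The readings of GH9B16 above 0 thus had the same numbers in both groups, apart from WT number 3 at 0.0086.

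**Figure D5:**
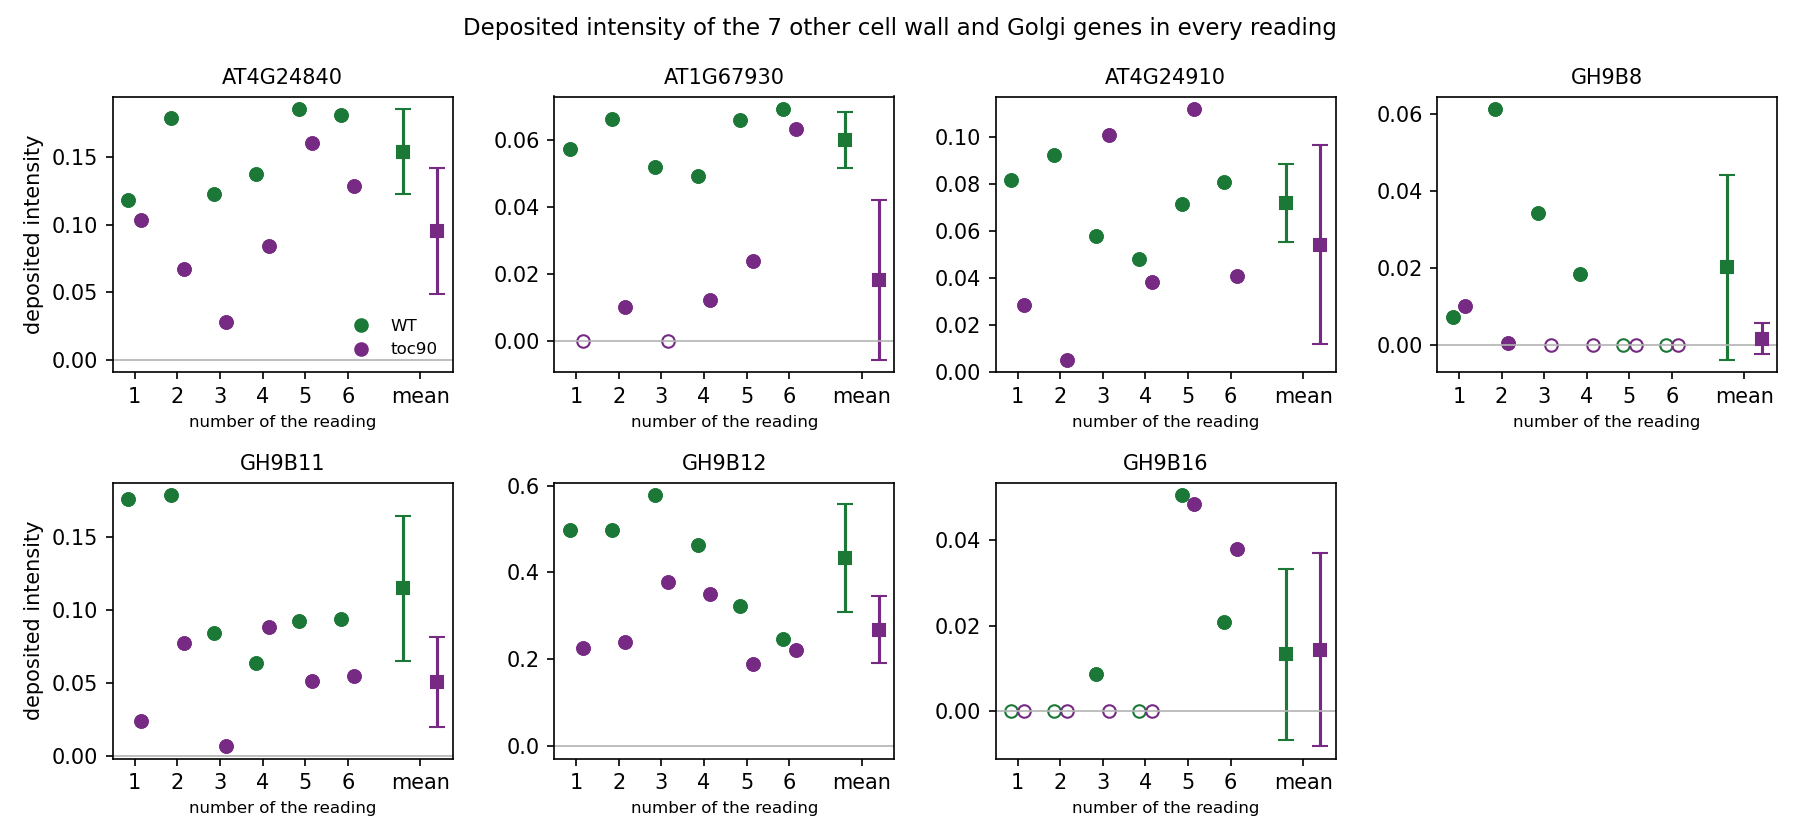
Deposited intensity (vertical axis, authors' unit, each panel with its own scale) of the 7 other cell wall and Golgi genes against the number of the reading, WT in green, toc90 in purple, open circles at 0 and squares for the mean ± SD of 6 readings. The ranges of the groups overlap in every panel, but AT4G24910 has 2 toc90 readings above and 4 below all WT readings. GH9B16 is above 0 in numbers 5 and 6 of both groups.

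Within the groups the 3 genes did not vary together as one set. Over the deviations of the 12 readings from their group means, r was 0.59 between CSLA01 and AT1G73430, -0.06 between CSLA01 and AT2G15440 and -0.52 between AT2G15440 and AT1G73430. Numbers 2 and 4 of toc90, at 0 for both genes, enter the first of these values. These values describe 12 readings of shared arrays and depth of signal, and carry no test.

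The genes whose deviations were most like those of each gene were taken from 476 other single-gene probes above 0 in at least 10 readings. For CSLA01 they were AT4G00170 (r = 0.93), AT2G41950 (0.92) and AT2G21720 (0.91), over 12 readings. Their own differences between the groups were -0.03, 0.06 and -0.76, so none stood as high as CSLA01. For AT2G15440 they were AT5G66530 (0.79), AT5G48110 (0.75) and AT1G50510 (0.74), with differences of -0.21, -0.96 and -0.88. For AT1G73430 they were AT2G45500 (0.87), AT5G58330 (0.82) and AT3G09250 (0.81), with differences of 0.34, -0.89 and -2.37. These are the highest of 476 values each, over readings of the same arrays, and no p is given.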

How the data were processed

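Array intensity values were deposited by the authors for 12 readings, 1 column each, and ran from 0 to 100. How the arrays were scanned, background-corrected, scaled and averaged is not given in the sources used here. Groups and numbers 1 to 6 came from the sample titles, and 0 columns lacked a sample. Genes were named through the array's platform annotation and a TAIR10.1 gene table, which was used beyond names only for the order of neighbouring genes. Of the 3439 probes, 692 had 1 gene (690 matched), 870 had several and 1877 were not listed.

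Zeros were kept, because leaving them out raises the mean of the group that holds them. Columns were quantile normalized and put on the scale log2(value + 0.0345), the offset being the median over columns of the 10th percentile of values above 0. Probes above 0 in at least 3 of 12 readings were tested, 3161 in all, and 278 were not. Differences were tested, two-sided, with limma 3.58.1 (lmFit, eBayes) in R 4.3.3, with Benjamini-Hochberg adjustment over the probes tested and a threshold of 0.05. The fit was tested on simulated data with independent readings, which cannot show how it does where readings vary together, as they did here. Figures used matplotlib 3.10.9 in Python 3.11.15.

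The genes, lists and tests were chosen with earlier results of these data known. Named genes were the 3 genes, all other list genes on single-gene probes, genes with cell wall words in their names and the 3 most correlated probes of each. Column measures were compared by exact permutation over 924 assignments and, added after seeing the data, over 64 within pairs of like number. Same-numbered readings of WT and toc90 deviated together (r of 0.13 to 0.30 over probes in all 6 pairs, 12 of 12 best with their own number), so the numbers pair the readings; the labels do not say by what. Neighbouring numbers correlated at 0.32, 0.59 and 0.41 in WT and at -0.04, -0.12 and 0.18 in toc90. Other numbers of the same group correlated at -0.54 to -0.05. Within toc90 these ran from -0.44 to -0.37 between odd and even numbers, and from -0.14 to -0.05 otherwise. The 6 readings of either group may thus hold less than 6 separate measures. The number of arrays limits the precision, and alternatives are given in the closing section.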

Additional observations from a re-analysis of the deposited data

Results flagged for a closer look

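Of 26 sets of 6 readings looked at, 3 had a reading far from the others. Chance gives about 1 in 20 for normally distributed values only, and sets with several readings at 0 are not so distributed. AT1G73430 in toc90 had 0.0462 in number 3, with 0.0108 as the nearest and 0 as the farthest reading. GH9B8 in toc90 had 0.0101 in number 1, with 0.000625 as the nearest and 0 as the farthest, and without it the toc90 mean was 0.000125. The median value of toc90 was 0.0687 in number 3, the nearest reading being at 0.0623 and the farthest at 0.0593.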

How the results depend on the processing

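Against 600 calls (262 higher, 338 lower), no scaling gave 1357 (81 and 1276), median scaling 979 (387 and 592), zeros at the lowest positive value 369 (151 lower), neighbouring numbers averaged 209 (56 and 153) and neighbouring numbers as a random block 312 (135 and 177). A fit with the number as replicate block gave 517 (217 and 300) and changed no call among the 7 other genes, nor did permuting within numbers for the share of zeros and the median and mean of the readings. Leaving out each reading gave 439 to 652 calls (181 to 288 higher, 258 to 364 lower). Without scaling 3 of the 7 other genes were called, and 0 to 1 with a reading left out. CSLA01 (0.88) stood at 2.21 with zeros as missing, 0.11 without scaling, 0.44 with median scaling, 0.19 and 1.31 with an offset 10 times larger and smaller and -0.36 where zeros took the lowest positive value, and at 0.73 to 1.15 with a reading left out. AT2G15440 (-1.06) stood at -1.40 with zeros as missing, -1.36 without scaling, -0.70 with median scaling, -1.20 with quantile normalization within classes of probe ID and -0.73 with an offset 10 times larger, and at -1.12 to -0.997 with a reading left out. AT1G73430 (-3.21) stood at -7.87 with zeros as missing, -3.84 without scaling, -4.66 and -1.18 with an offset 10 times smaller and larger, and -6.79 where zeros took the lowest positive value, and at -3.40 to -3.05 with a reading left out. Differences of uncalled genes that changed sign were, with zeros as missing, -0.11 (AT4G24840), -0.52 (GH9B11) and -0.22 (AT1G67930). Without scaling they were -0.61 (AT4G24840), -0.85 (GH9B11), -0.39 (AT4G24910) and -0.94 (AT1G67930). With median scaling they were -0.059 (AT4G24840), -0.38 (GH9B11), 0.0047 (GH9B12) and -0.61 (AT1G67930). AT1G67930 turned to -0.38 with the smaller offset and -2.35 where zeros took the lowest positive value. GH9B8 turned to 0.13 within classes of probe ID and 0.0015 with the larger offset. With a reading left out, GH9B12 ran from -0.21 to 0.019, GH9B8 from -0.16 to 0.11 and AT1G67930 from -0.16 to 0.25. CSLA01, GH9B8, AT1G67930 and GH9B16 had no value without the dimmest 25% of probes, and GH9B8 and GH9B16 none with zeros as missing. The cause of these shifts was not tested. Values near 0 limit what can be said of CSLA01 and of AT1G73430 in toc90.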
